A study of Homo sapiens with 4 samples.

Results

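The genes described here are 9 human microRNA genes: the MIR100, MIRLET7A2 and MIR125B1 cluster on chromosome 11, the MIR200B, MIR200A and MIR429 cluster on chromosome 1, and the single loci MIR21, MIR204 and MIR148B. They were named as a set with earlier results of these arrays known, and were chosen in part from their differences between FOXC1 and vector cells on these same arrays. Their values below are therefore a description. They are given without p-values, and nothing is drawn from how many of them pass a threshold. Each gene was found through the array annotation and had 1 probe set that carried no other gene symbol, 9 of 21214 probe sets with a symbol and of 33297 rows in all. The comparison asked how these loci stood in MDA-MB-231 cells transfected with a FOXC1 plasmid, against the same cells given the vector. MDA-MB-231 is an established human breast cancer line with mesenchymal traits, and FOXC1 is a forkhead transcription factor. There were 2 arrays of each group, and both groups received the same lipid transfection reagent and the same medium with serum. The sources used here do not say if transfection was transient, nor if the cells were a selected pool or a clone. The array was a whole-transcript design hybridised with labelled total RNA, so a microRNA probe set sees the hairpin precursor or the longer transcript that carries it, and mature microRNA was not measured.

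A microRNA is cut from a hairpin in a longer primary transcript, first in the nucleus by DROSHA with DGCR8 and then in the cytoplasm by DICER1, and the mature strand guides an Argonaute protein to messenger RNAs that pair with its seed. The let-7 family restrains growth and pluripotency genes and is itself blocked by LIN28 proteins. The miR-200 family holds epithelial cells in their state through a mutual repression with the transcription factors ZEB1 and ZEB2, while miR-21, carried within the VMP1 locus, is abundant in many carcinomas and represses growth restraints such as PDCD4 and Sprouty proteins. miR-100 and miR-125b lie with let-7a within the span of the long noncoding gene MIR100HG, and miR-204 and miR-148b lie within the genes TRPM3 and COPZ1.

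The main mature strands of the 9 genes are shown because they define which messenger RNAs each could pair with. They are RefSeq entries on GRCh38.p14, matched by gene symbol for all 9, and capitals mark the seed, bases 2 to 8 from the 5′ end.
hsa-miR-100-5p: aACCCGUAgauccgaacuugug
hsa-let-7a-5p: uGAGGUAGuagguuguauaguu
hsa-miR-125b-5p: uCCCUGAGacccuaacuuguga
hsa-miR-200b-3p: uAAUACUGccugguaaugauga
hsa-miR-200a-3p: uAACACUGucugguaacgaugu
hsa-miR-429: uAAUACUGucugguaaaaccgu
hsa-miR-21-5p: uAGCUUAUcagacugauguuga
hsa-miR-204-5p: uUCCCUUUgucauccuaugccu
hsa-miR-148b-3p: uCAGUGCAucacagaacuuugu
The 3 genes of the chromosome 11 cluster carry 3 unlike seeds. They are therefore not members of 1 seed family, although all lie within the span of MIR100HG. In the chromosome 1 cluster MIR200B and MIR429 share a seed, and that of MIR200A differs. The mature strands of MIR200B and MIR200A were identical at 18 of 22 positions, those of MIR200B and MIR429 at 16, and those of MIR200A and MIR429 at 17.

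The hairpins of the chromosome 11 cluster are the sequences closest to what these probe sets detect, and are shown since the cluster's 3 probe sets differed in their readings. All lie on the minus strand of GRCh38.p14, at chr11:122152229-122152308 for MIR100, chr11:122146522-122146593 for MIRLET7A2 and chr11:122099757-122099844 for MIR125B1. Capitals mark the mature strand.
MIR100 hairpin: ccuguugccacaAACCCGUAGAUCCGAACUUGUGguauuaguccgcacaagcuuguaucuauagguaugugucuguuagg
MIRLET7A2 hairpin: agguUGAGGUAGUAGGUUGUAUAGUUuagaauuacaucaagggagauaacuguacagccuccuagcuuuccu
MIR125B1 hairpin: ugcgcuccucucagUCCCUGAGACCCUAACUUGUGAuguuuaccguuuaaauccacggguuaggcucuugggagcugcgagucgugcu
MIR100 and MIRLET7A2 lie 5.6 kb apart and MIRLET7A2 and MIR125B1 46.7 kb apart, all within the span of MIR100HG. Of the chromosome 1 cluster, 2 hairpins are in the same set, on the plus strand at chr1:1167104-1167198 for MIR200B and chr1:1169005-1169087 for MIR429.
MIR200B hairpin: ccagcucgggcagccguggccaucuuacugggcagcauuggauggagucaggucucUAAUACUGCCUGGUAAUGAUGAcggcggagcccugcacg
MIR429 hairpin: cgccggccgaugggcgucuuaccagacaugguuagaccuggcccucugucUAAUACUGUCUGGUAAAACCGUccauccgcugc
The mature strand of MIR200A lies between them, at chr1:1167916-1167937. MIR200B lies 664 bases from MIR200A and MIR200A 1052 bases from MIR429, all within the span of the noncoding gene MIR200BHG.

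The arrays were alike in brightness, with a median signal between 489 and 512, and the correlation of log2 signal across probe sets was 0.997 within each group. The 6 markers of a mesenchymal breast cancer line, VIM among them, lay between the 90th and 99.8th percentile of brightness, and the 6 luminal markers between percentile 6.52 (PGR) and 96.7 (KRT8). Of the mesenchymal markers, CD44 and EGFR were higher in FOXC1 cells, and VIM, CAV1 and MSN were lower. Of the luminal markers, KRT8, GATA3 and EPCAM were lower and none was higher. The luminal markers summed to 11395 to 11971 in vector and 9655 to 9694 in FOXC1 arrays, most of it KRT8 (means 9162 and 7560). The level of FOXC1 itself was not analysed here, which leaves the labels without that check. Of markers of cells that a culture of this line should not hold, PECAM1 was lower (1 of 3 endothelial markers, summed signal 2167 to 2444 in vector and 1735 to 1749 in FOXC1 arrays). PTPRC was higher (1 of 5 leukocyte markers, 1434 to 1569 and 1528 to 1557), and so was DCN (1 of 4 fibroblast markers, 1253 to 1268 and 1330 to 1394). No marker was listed at 0, and the part of these cells in the values below was not tested.

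In the chromosome 11 cluster MIRLET7A2 and MIR100 were lower in FOXC1 cells, and MIR125B1 was not distinguishable between the groups. MIRLET7A2, 1 of several genes that give the let-7a strand, had signals of 536 and 472 with vector and 271 and 277 with FOXC1. Its group means were 504 ± 45.2 and 274 ± 4.16 (SD, n = 2 each), and the difference of log2(signal + 16), used for every log2 value here, was -0.84 ± 0.09 (SE), or 1.79-fold lower. Both FOXC1 arrays lay well under both vector arrays. In such bulk RNA, fewer cells with a transcript and less of it per cell cannot be told apart. MIR100, whose product is a member of the miR-99 family, had signals of 66.6 and 61.9 with vector and 31.4 and 28.6 with FOXC1. The means were 64.3 ± 3.33 and 30.0 ± 1.96 (SD, n = 2 each), a log2 difference of -0.80 ± 0.14 (SE), or 1.74-fold lower. The groups did not overlap, but this probe set was dim, at percentile 1.56 of brightness, so its size rests on the added 16. Its log2 difference was -1.07 where 1 was added and -0.45 where 64 was. MIR125B1, the third gene of the cluster and a homologue of the worm gene lin-4, had signals of 278 and 255 with vector and 265 and 249 with FOXC1. These interleaved, with means of 267 ± 16.1 and 257 ± 11.1 (SD, n = 2 each) and a log2 difference of -0.05 ± 0.09 (SE). Its sign turned to 0.01 without vector replicate 1.

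In the chromosome 1 cluster all 3 genes read higher in FOXC1 cells, by modest amounts. MIR429 had signals of 233 and 261 with vector and 316 and 349.6 with FOXC1. The means were 247 ± 19.8 and 333 ± 23.5 (SD, n = 2 each), a log2 difference of 0.41 ± 0.09 (SE), or 1.33-fold higher. MIR200B, which shares the seed of MIR429, had signals of 483 and 540 with vector and 574 and 656 with FOXC1. The lower FOXC1 array stood close above the higher vector array. Its means were 511 ± 40.4 and 615 ± 58.4 (SD, n = 2 each), a log2 difference of 0.26 ± 0.08 (SE), or 1.20-fold higher. That difference ranged from 0.16 without FOXC1 replicate 2 to 0.35 without FOXC1 replicate 1. MIR200A, with its own seed, had signals of 19.7 and 36.9 with vector and 44.8 and 52.9 with FOXC1. The 2 vector arrays were further apart than the higher of them was from the lower FOXC1 array. The means were 28.3 ± 12.2 and 48.9 ± 5.74 (SD, n = 2 each), a log2 difference of 0.58 ± 0.17 (SE), or 1.49-fold higher. This probe set, at percentile 1.10 of brightness, was the dimmest of the 9. Its log2 difference was 0.83 where 1 was added and 0.30 where 64 was. Leaving out vector replicate 1 gave 0.29, and leaving out vector replicate 2 gave 0.86.

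The 3 single loci were each separate between the groups. MIR21 had signals of 764 and 726 with vector and 543 and 483 with FOXC1. The means were 745 ± 27.0 and 513 ± 42.2 (SD, n = 2 each), a log2 difference of -0.53 ± 0.07 (SE), or 1.44-fold lower. Every FOXC1 array lay below every vector array, with a gap wider than the spread within either group. MIR204, best known from the retinal pigment epithelium, had signals of 245 and 295 with vector and 383 and 408 with FOXC1. The means were 269.6 ± 35.4 and 396 ± 18.1 (SD, n = 2 each), a log2 difference of 0.53 ± 0.10 (SE), or 1.45-fold higher. It ranged from 0.41 without vector replicate 1 to 0.66 without vector replicate 2. MIR148B, whose family represses DNA methyltransferase genes, had signals of 230.3 and 215 with vector and 299.5 and 307 with FOXC1. The means were 223 ± 10.7 and 303 ± 5.001 (SD, n = 2 each), a log2 difference of 0.42 ± 0.09 (SE), or 1.34-fold higher. The 2 arrays of each group lay close together here, apart from the other group.

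**Figure D1:**
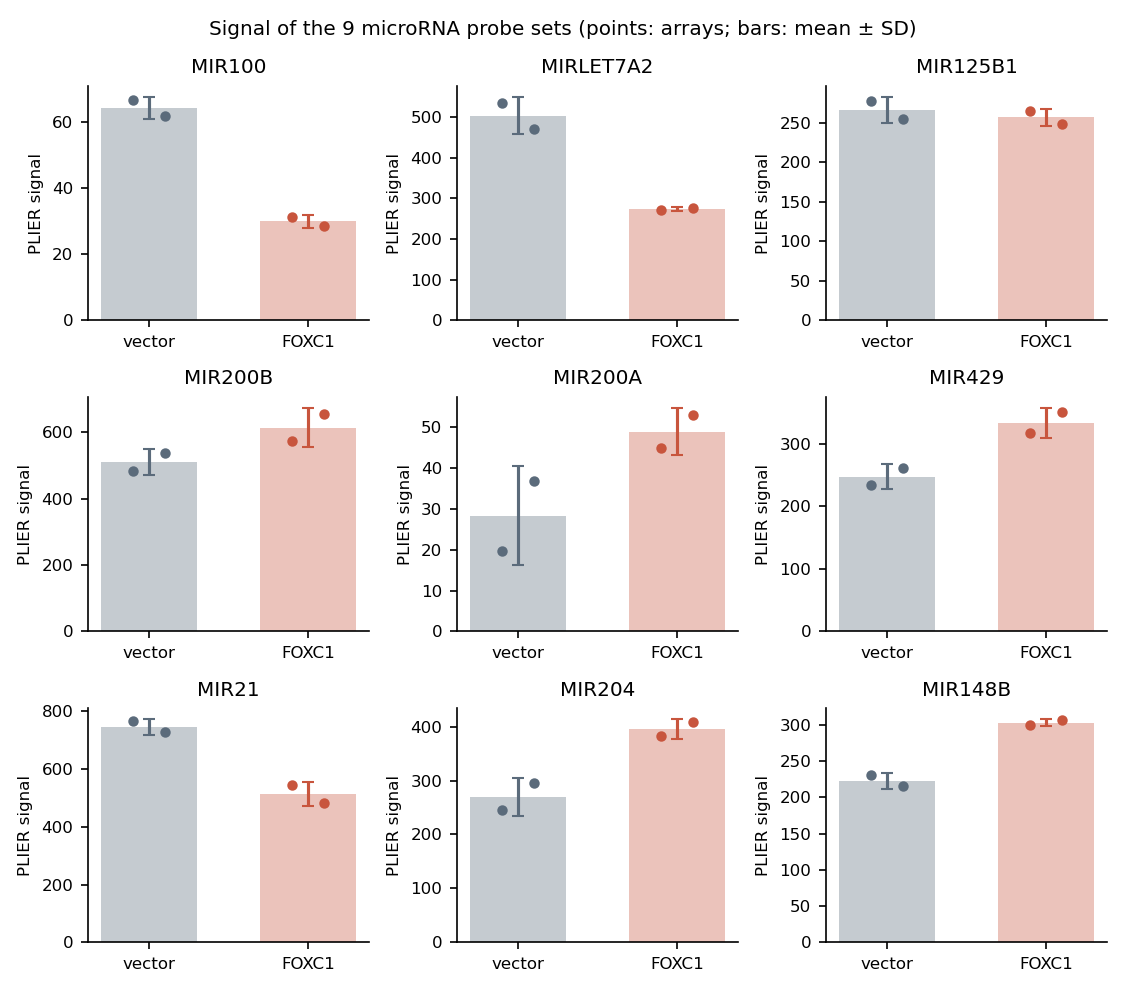
Linear PLIER signal (arbitrary units) of the probe sets of the 9 microRNA genes on each of the 4 arrays, by group. Points are arrays, bars the mean of 2 and whiskers the SD. MIRLET7A2, MIR100 and MIR21 sit lower on both FOXC1 arrays, MIR125B1 interleaves (255 to 278 in vector, 249 to 265 in FOXC1), and the other genes sit higher on both FOXC1 arrays.

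Counted together, 5 of the 9 genes lay past an adjusted p of 0.05 on the higher side and 3 on the lower side, and 8 had groups that did not overlap. Over all 21214 probe sets 30.9% passed that limit, 16.1% higher and 14.8% lower, and the groups did not overlap for 63.3%, 37.4% higher and 25.9% lower. Of all calls 52.2% were on the higher side, against 35.3% with arrays centred on their medians and 61% when centred on named probe sets. Since the genes were chosen with this contrast in view, nothing is read from their share. MIR200B and MIR200A lost their calls with no trend in eBayes and over all rows, and MIR200A also after quantile normalization. On the higher side the count was 3 where vector replicate 1 was left out and 3 where FOXC1 replicate 2 was, where MIR200B and MIR200A were the genes lost.

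**Figure D2:**
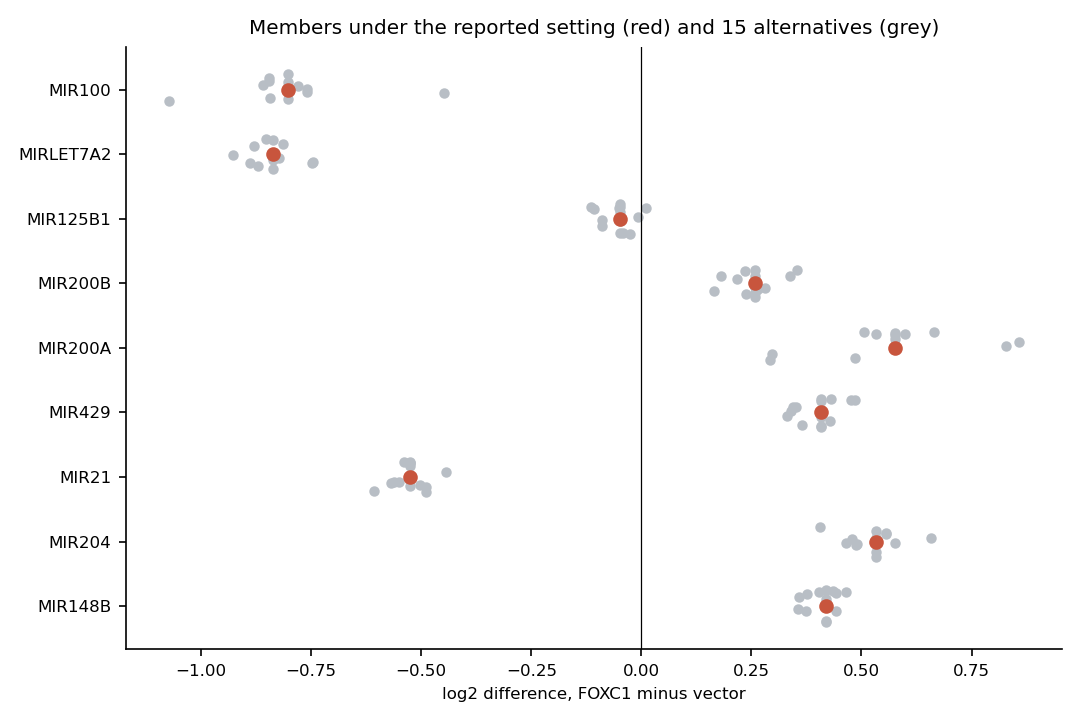
Log2 difference (FOXC1 minus vector) of the 9 microRNA genes as reported (red) and under each of 15 alternative settings in which the gene was fitted (grey). MIR100 runs from -1.07 to -0.45 and MIR200A from 0.29 to 0.86, and the sign of MIR125B1 turns in 1 setting.

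Against the other microRNA probe sets, most of the 9 genes stood toward the edges of the distribution and MIR125B1 and MIR200B did not, a placing that the choice of the genes helps to fix. Of all 173 microRNA probe sets 14 passed higher and 5 lower, 8.09% and 2.89%, with a median log2 difference of 0.07 against 0.03 for all probe sets. With 16 added, MIRLET7A2, MIR100 and MIR21 held ranks 1, 2 and 3 from the lowest, and MIR200A and MIR204 ranks 1 and 2 from the highest. The order of these genes depends on what is added. Where 1 was added, MIR100 (-1.07) lay below MIRLET7A2 (-0.87), and where 64 was, MIR200A (0.30) lay below MIR204 (0.47), MIR148B (0.36) and MIR429 (0.35). MIR148B, MIR429 and MIR200B held ranks 5, 6 and 21 from the highest, and MIR125B1 rank 39 from the lowest. Without FOXC1 replicate 2 only 6 microRNA probe sets passed higher, and without vector replicate 2 only 3 passed lower. MicroRNA probe sets were dim as a class, with a median signal of 141 against 782 for all probe sets. In the dimmest 25% of all probe sets 5.17% passed higher and 3.37% lower, and in the brightest 25% 29.2% and 21.2%.

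Outside the 9 genes, 164 microRNA probe sets were measured, and 9 passed higher and 2 lower. The falls were in MIR494, 1.25-fold, from 457 ± 20.9 to 365 ± 60.5, and in MIR24-2, 1.21-fold, from 237 ± 8.21 to 193 ± 1.36 (SD, n = 2 each). Their limma adjusted p-values were 0.0129 and 0.0344. Of the rises, MIR154 had the smallest adjusted p, 0.000743, with signals of 513 and 544 with vector and 635 and 758 with FOXC1. These 3 were picked for mention after their values were seen.

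**Figure D3:**
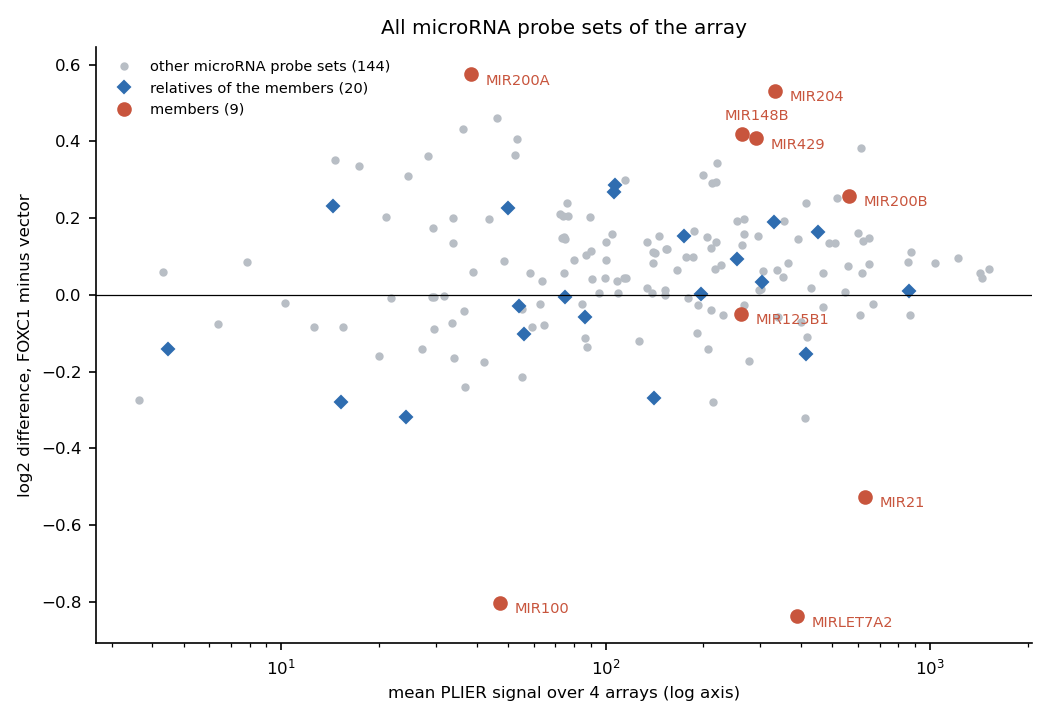
Log2 difference (FOXC1 minus vector) against mean signal (log axis) for the 173 microRNA probe sets, with the 9 described genes labelled (red) and their 20 relatives as blue diamonds. With 16 added before log2, MIRLET7A2, MIR100 and MIR21 lie lowest and MIR200A and MIR204 highest, an order that changes where 1 or 64 is added.

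The relatives of these genes, which share a seed, an ancestral cluster or a wider family with them, gave no call. Of 20 measured of 22 listed, 0 passed the limma adjusted p of 0.05 in either direction, 5 had an unadjusted p under 0.05, and their median log2 difference was 0.01. Over all 21214 probe sets 30.9% passed that limit, and 8421 had an unadjusted p under 0.05. Of the 164 microRNA probe sets outside the 9 genes, these relatives among them, 9 passed higher and 2 lower, and 22 had an unadjusted p under 0.05. The second miR-200 cluster, which holds MIR200C with the seed of MIR200B and MIR429 and MIR141 with that of MIR200A, had signals of 248 and 243 with vector and 249 and 277 with FOXC1 for MIR200C. Its log2 difference was 0.09 ± 0.10 (SE, adjusted p = 0.509 in limma). MIR141 had signals of 98.4 and 90.9 with vector and 123 and 111 with FOXC1, a log2 difference of 0.27 ± 0.12 (SE, adjusted p = 0.0996). Both FOXC1 arrays of MIR141 lay above the vector arrays without reaching the limit.

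Paralogous copies of the chromosome 11 cluster elsewhere in the genome did not pass either. MIR99A, with the seed of MIR100, had a log2 difference of 0.15 ± 0.11 and MIR99B one of 0.01 ± 0.08 (SE, n = 2 each). MIR125B2, which yields the same mature strand as MIR125B1, had signals of 149 and 160.5 with vector and 107 and 147 with FOXC1. Its log2 difference was -0.27 ± 0.13 (SE, adjusted p = 0.123 in limma), and it passed without FOXC1 replicate 2 (log2 -0.47), as did MIRLET7I (log2 -0.26). MIR125B2 also passed with arrays centred on their medians (adjusted p = 0.0251). Of the other let-7 genes, which share its seed, 9 were measured, and MIRLET7A1, a further source of let-7a, had a log2 difference of -0.06. MIRLET7E had the largest of these, 0.29 ± 0.12 (SE, adjusted p = 0.0758), and passed with no trend in eBayes (0.0467). MIR211, the seed relative of MIR204, had 0.16 ± 0.08, and MIR152, a seed relative of MIR148B, 0.19 ± 0.08 (SE), with adjusted p-values of 0.117 and 0.100. MIR152 passed with no trend in eBayes (adjusted p = 0.0415). MIR148A, the other seed relative of MIR148B, had the opposite sign at very low signal, 21.2 and 15.4 with vector and 10.4 and 14.1 with FOXC1, a log2 difference of -0.28 ± 0.17 (SE, adjusted p = 0.243 in limma). MIR10A, of the wider family of MIR100, had the largest difference of the relatives, also at very low signal, 27.2 and 30.1 with vector and 19.0 and 20.7 with FOXC1. Its log2 difference was -0.32 ± 0.16 (SE, adjusted p = 0.137), and it passed after quantile normalization (0.0495) and with no trend in eBayes (0.0258). The relatives had a median signal of 107, against 782 for all probe sets, and the brightest of them, MIR99B, had a mean signal of 863. With 2 arrays a group a miss does not show that the groups were alike. These relatives were named after values were seen, all but MIR10A from their seeds.

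Of the 3 host genes measured, COPZ1 rose and VMP1 and TRPM3 did not pass. MIR21 was 1.44-fold lower while VMP1, the autophagy gene whose span holds it, had a signal of 8465 ± 195 in vector and 8842 ± 120 in FOXC1 cells (SD, n = 2 each). The log2 difference of VMP1 was 0.06 ± 0.03 (SE, adjusted p = 0.0709 in limma), of the opposite sign to MIR21. It passed in a fit of the brighter 50% of probe sets (adjusted p = 0.0459) and when centred on named probe sets (0.0208). TRPM3, the cation channel gene that holds MIR204, had signals of 308 and 323 with vector and 293 and 328 with FOXC1, which overlapped, and a log2 difference of -0.02 ± 0.09 (SE, adjusted p = 0.878). COPZ1, a coatomer subunit gene that holds MIR148B, rose 1.13-fold, from 5763 ± 101 to 6534 ± 232 (SD, n = 2 each), with an adjusted p of 7.87e-05 in limma. It has the direction of MIR148B, and eBayes with no trend on signal took away its call (adjusted p = 0.0676). Whether host and microRNA differ from each other was not tested, since they are different probe sets. MIR100HG and MIR200BHG had no probe set of their own symbol alone and were not analysed here.

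Around the clusters, genes moved both ways. BLID, a small gene between MIR125B1 and MIRLET7A2, had a log2 difference of -0.21 ± 0.10 (SE), with signals of 219 and 204 with vector and 175 and 188 with FOXC1, and did not pass (adjusted p = 0.135 in limma), but passed after quantile normalization (0.0426). SC5D, an enzyme of cholesterol synthesis on one side of the cluster, rose 1.16-fold (log2 0.22 ± 0.04 SE, adjusted p = 0.000405). SORL1, UBASH3B and CRTAM did not pass, with log2 differences of 0.06, 0.03 and 0.12. Next to the MIR200B cluster, AGRN, which encodes the basement membrane proteoglycan agrin, fell 1.11-fold (log2 -0.15 ± 0.05 SE, adjusted p = 0.0160 in limma). It did not pass without vector replicate 1 (adjusted p = 0.284), with no trend in eBayes (0.0969) and over all rows (0.0586). TTLL10, TNFRSF18 and C1orf159 there had log2 differences of 0.12, 0.13 and -0.00201 and did not pass.

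Counted with the hosts and BLID, 24 genes lay at or beside the loci, and 4 rose and 6 fell with a median log2 difference of -0.01. These were 16.7% and 25%, against 15.9% and 15.5% of all 18417 genes at 1 probe set each. The shares were not tested against each other. Beside MIR21, clathrin heavy chain CLTC rose 1.09-fold and the helicase DHX40 fell 1.19-fold, while TUBD1 and RPS6KB1 did not pass, with log2 differences of -0.05 and -0.09. The call of CLTC was not made with no trend in eBayes (adjusted p = 0.142). RPS6KB1 passed in a fit of the brighter 50% of probe sets (adjusted p = 0.0380 in limma). It also passed after quantile normalization (0.0248) and with arrays centred on their medians (0.0267). Beside MIR204, where the microRNA probe set was higher, SMC5, CEMIP2 and ABHD17B fell 1.14-fold, 1.13-fold and 1.24-fold, and KLF9 did not pass (log2 -0.10). With arrays centred on their medians KLF9 passed (adjusted p = 0.0479 in limma). Beside MIR148B, the RNA-binding protein gene HNRNPA1 rose 1.20-fold and ZNF385A fell 1.36-fold, the largest of these neighbours' differences, and NFE2 and GPR84 did not pass (log2 -0.11 and 0.11). Without FOXC1 replicate 1 TNFRSF18 and RPS6KB1 passed as well, and without FOXC1 replicate 2 KLF9 did.

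**Figure D4:**
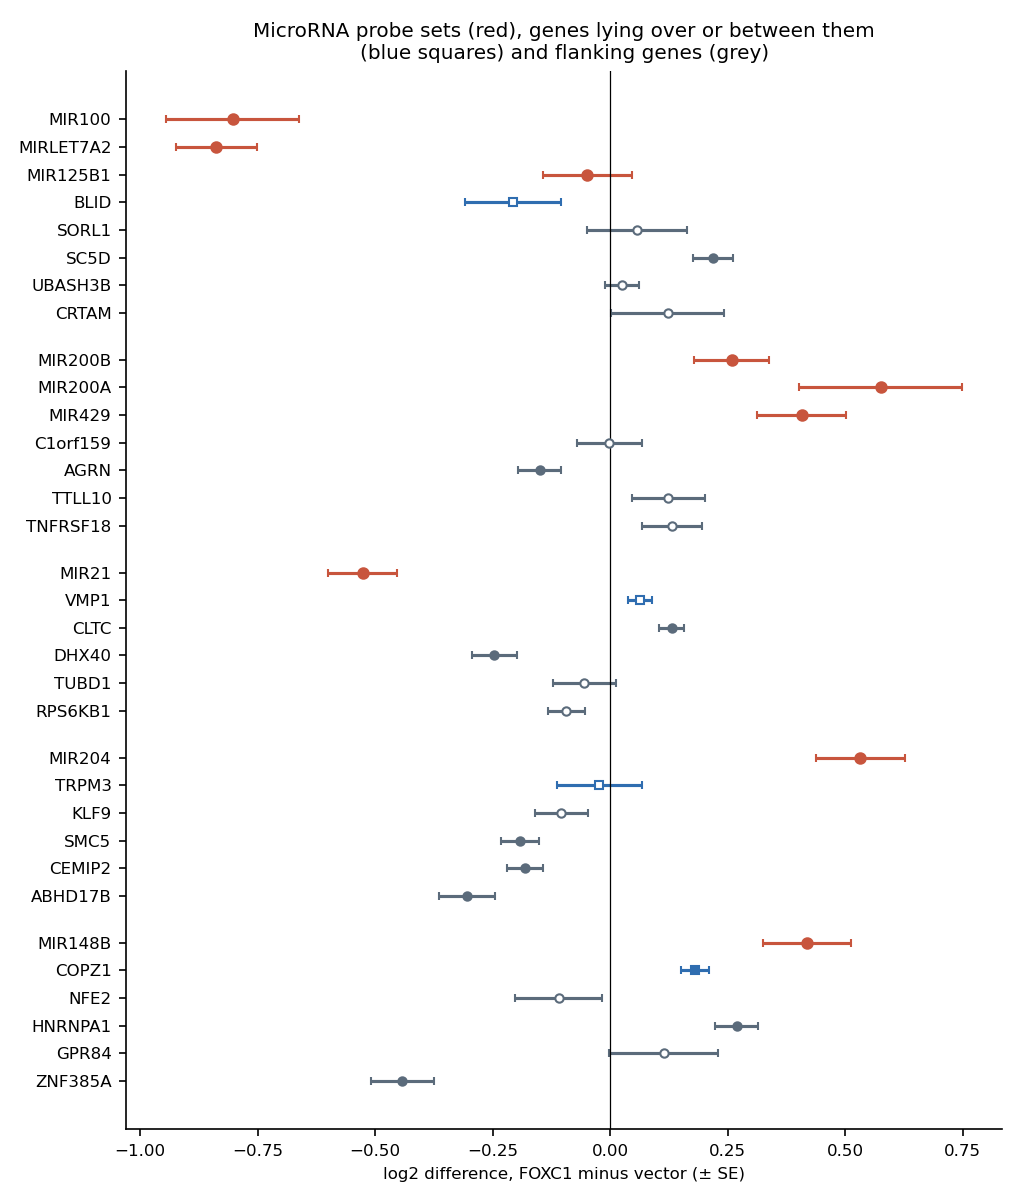
Log2 difference (FOXC1 minus vector) with SE for the microRNA genes (red), genes lying over or between them (blue squares) and the nearest measured genes (grey), by locus. Among blue and grey symbols, filled ones passed an adjusted p of 0.05. The members of the chromosome 1 cluster lie above 0 and MIRLET7A2 and MIR100 below, while the neighbours lie between -0.44 (ZNF385A) and 0.27 (HNRNPA1).

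The probe sets most like MIRLET7A2, the member with the largest absolute log2 difference where 16 was added (MIR100 had the largest where 1 was), were sought over the 4 arrays by Euclidean distance between centred log2 values. The nearest were RFPL4A (distance 0.066), BTN3A1 (0.067) and TRIM2 (0.071), with log2 differences of -0.87, -0.84 and -0.80. With 4 arrays in 2 groups, the distance is set largely by the size of the group difference.

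The promoter of MIR200BHG is shown because the 3 genes of its cluster read higher together and because E-boxes there are a known element bound by ZEB proteins. The window, chr1:1162627-1162926 on the plus strand of GRCh38.p14, runs from 250 bases before to 50 after the RefSeq start. Capitals mark the E-box CACCTG, searched on both strands (CAGGTG on the other).
MIR200BHG promoter: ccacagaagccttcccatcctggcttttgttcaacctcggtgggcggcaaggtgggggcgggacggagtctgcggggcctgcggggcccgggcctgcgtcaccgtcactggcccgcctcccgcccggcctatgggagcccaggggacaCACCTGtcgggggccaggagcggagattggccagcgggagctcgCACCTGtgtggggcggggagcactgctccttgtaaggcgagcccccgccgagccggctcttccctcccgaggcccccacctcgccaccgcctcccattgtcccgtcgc
The E-box letters stood at 2 places in it. The forkhead letters GTAAACA, likewise searched on both strands, stood at 0 places, so no match of one motif overlapped the other. Of 35116 promoter windows of the same length 20.6% held CACCTG and 3.4% GTAAACA. Of the 6 promoter windows listed for MIR100HG, 1 held CACCTG and 0 held GTAAACA. The window with CACCTG, chr11:122102180-122102479 on the minus strand, lies between MIR125B1 and MIRLET7A2. So do those at chr11:122100797-122101096 and chr11:122105567-122105866. On that strand, transcripts from these places would run toward MIR125B1 and away from MIRLET7A2 and MIR100. A match is a description of letters, and its absence says only that these letters are not in the windows searched.

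Among regulators reported for these loci in earlier work, 3 of 19 measured rose and 5 fell, with a median log2 difference of 0.06. Over all 18417 genes taken at 1 probe set each, 15.9% passed higher and 15.5% lower, and the median was 0.03. FOS and JUN, subunits of the AP-1 factor that has been reported to drive MIR21, fell 2.14-fold and 1.30-fold, with log2 differences of -1.10 ± 0.04 and -0.38 ± 0.03 (SE). MITF, a pigment cell regulator linked to MIR204 and MIR211, rose 1.64-fold, from 1726 ± 43.4 to 2840 ± 44.2 (SD, n = 2 each). GATA6, reported as a repressor of the chromosome 11 cluster, rose 1.17-fold (log2 0.22 ± 0.04 SE). The limma adjusted p-values of these 4 genes were 0.000110 or lower. The miR-200 antagonist ZEB1, added after values were seen, had signals of 4665 and 4858 with vector and 4216 and 4124 with FOXC1. It fell 1.14-fold, a log2 difference of -0.19 ± 0.03 (SE, adjusted p = 9.98e-05 in limma). ZEB2, the other antagonist, did not pass (log2 0.10 ± 0.05 SE, adjusted p = 0.170). The remaining regulators that passed were TP73 (log2 0.20), SNAI2 (-0.11) and MYC (-0.10). The others listed did not pass, among them STAT3 (log2 0.01, adjusted p = 0.847 in limma) and the GRHL, OVOL and ELF3 genes. Whether any of these regulators acted on the loci in these cells was not tested.

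The machinery that cuts and uses microRNAs moved in both directions. Of 27 genes measured of 28 listed, 7 rose and 7 fell with a median log2 difference of 0.01. That was 25.9% each way, against 15.9% and 15.5% of all genes at 1 probe set each. These genes were brighter, with a median signal of 2243 against 804, and the shares were not tested against each other. AGO2, the Argonaute that can slice its targets, rose 1.27-fold, with a mean of 3363 ± 39.5 in vector and 4265 ± 0.20 in FOXC1 cells (SD, n = 2 each). Another Argonaute, AGO4, fell 1.31-fold, from 685 ± 7.13 to 519 ± 40.3 (SD, n = 2 each). The helicases DDX17, a partner of the nuclear cutting complex, and MOV10, found with Argonautes, fell 1.28-fold and 1.23-fold. Of the core cutting and export genes, chosen here after values were seen, DICER1 rose 1.10-fold (log2 0.13 ± 0.03 SE, adjusted p = 0.00119 in limma). DROSHA, DGCR8 and the exporter XPO5 did not pass, with log2 differences of 0.09, -0.01 and 0.07. Of the let-7 blockers, also picked afterwards, LIN28A passed at low signal (256 ± 22.2 to 311 ± 20.9; SD, n = 2 each; adjusted p = 0.0400), and LIN28B did not (log2 0.03 ± 0.15 SE).

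Messenger RNAs reported as targets of these microRNAs, listed from general knowledge with earlier results of these arrays known, gave the other side of the pathway. In all 7 lists together 148 genes were measured, 12 of them in more than 1 list. Of these 42 rose and 48 fell, and the median log2 difference was 0.01. That was 28.4% and 32.4%, against 15.9% and 15.5% of all genes at 1 probe set each. The listed targets were brighter, with a median signal of 2066 against 804. Bright probe sets passed more often than dim ones, 29.2% higher and 21.2% lower in the brightest group given above. The counts of each list below are to be read beside these shares. Such lists hold genes under many other controls, and no list was tested against other genes.

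Of 24 let-7 targets measured, 11 rose and 4 fell, with a median log2 difference of 0.10. The largest difference was a fall, in cyclin D2, CCND2. Its signals were 1208 and 1218 with vector and 272 and 244 with FOXC1, 4.49-fold lower (log2 -2.17 ± 0.07 SE, adjusted p = 1.53e-15 in limma). TGFBR1, a receptor for TGF-beta, fell 1.45-fold (log2 -0.54 ± 0.04 SE). The cytokine IL6 rose 1.27-fold and the cell cycle phosphatase CDC25A 1.25-fold. Picked after their values were seen, the receptor IGF1R, the chromatin factor ARID3B and the matrix protein THBS1 rose with log2 differences of 0.26, 0.26 and 0.21. MYC fell with a log2 difference of -0.10, and HMGA1, an architectural chromatin protein, did not pass (log2 -0.03 ± 0.02 SE).

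Targets reported for the other 2 genes of the chromosome 11 cluster were also mixed. Of 16 miR-100 targets measured 3 rose and 3 fell, with a median log2 difference of 0.01. The growth kinase MTOR rose 1.20-fold, from 2739 ± 54.8 to 3304 ± 34.8 (SD, n = 2 each), and KBTBD8, a substrate adaptor of a ubiquitin ligase, 1.46-fold. The pseudokinase TRIB2 fell 1.85-fold and the calcineurin catalytic subunit PPP3CA 1.26-fold. Of 25 miR-125b targets 10 rose and 5 fell, with a median of 0.07, and without vector replicate 1 only 3 fell. Of these TNFAIP3, an inhibitor of NF-kB signalling, rose 1.68-fold and the transcriptional repressor PRDM1 1.24-fold. BCL3, an atypical member of the I-kappa-B family, fell 2.04-fold and the cytokine receptor LIFR 1.53-fold.

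Of 27 miR-200 family targets 7 rose and 11 fell, with a median log2 difference of -0.01, and 4 rose without vector replicate 2. The angiogenic factor VEGFA had signals of 6812 and 6548 with vector and 2085 and 2069 with FOXC1, and fell 3.20-fold (log2 -1.68 ± 0.03 SE, adjusted p = 3.50e-19 in limma). Its receptor KDR fell 1.75-fold and the phosphatase PTPN13 1.44-fold. The chemokine CXCL8 rose 2.18-fold, from 5720 ± 45.6 to 12508 ± 1373 (SD, n = 2 each).

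Of 24 miR-21 targets 9 rose and 10 fell, with a median log2 difference of -0.01, and 5 rose without vector replicate 2. TIMP3, an inhibitor of matrix metalloproteinases, had signals of 7121 and 7331 with vector and 2878 and 2715 with FOXC1, and fell 2.58-fold (log2 -1.36 ± 0.03 SE). The matrix protein TGFBI fell 2.14-fold and the growth factor feedback inhibitor SPRY1 1.70-fold, while the actin-binding protein TPM1 rose 1.44-fold. PDCD4, a translation inhibitor and a classic target of miR-21 picked after its value was seen, fell by 0.17 on the log2 scale (adjusted p = 0.0385 in limma). RECK and RHOB, picked likewise, had log2 differences of -0.44 and -0.43 and both fell.

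Of 21 miR-204 targets 5 rose and 9 fell, with a median log2 difference of -0.00447, and 2 rose in each fit that left out 1 vector array. The survival gene BCL2 rose 1.66-fold, from 1055 ± 5.71 to 1764 ± 13.2 (SD, n = 2 each). The bone transcription factor RUNX2 fell 1.59-fold, the angiogenic ligand ANGPT1 1.37-fold and the homeobox gene MEIS1 1.24-fold. MEIS1 lost its call without vector replicate 2 (adjusted p = 0.0634). Of 23 targets of the family of MIR148B 5 rose and 8 fell, with a median of 0.01. The integrin chain ITGB8 fell 3.16-fold, with signals of 514 and 499 with vector and 160 and 140 with FOXC1, and the macrophage growth factor CSF1 fell 1.57-fold. The sterol sensor partner INSIG1 rose 1.41-fold and the BMP antagonist NOG 1.37-fold. Of the DNA methyltransferases, picked after values were seen, DNMT1 was higher (log2 0.08 ± 0.03 SE, adjusted p = 0.0174 in limma) and DNMT3A lower (log2 -0.16 ± 0.05 SE, adjusted p = 0.0244), and DNMT3B did not pass (log2 0.02 ± 0.05 SE, adjusted p = 0.833).

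**Figure D5:**
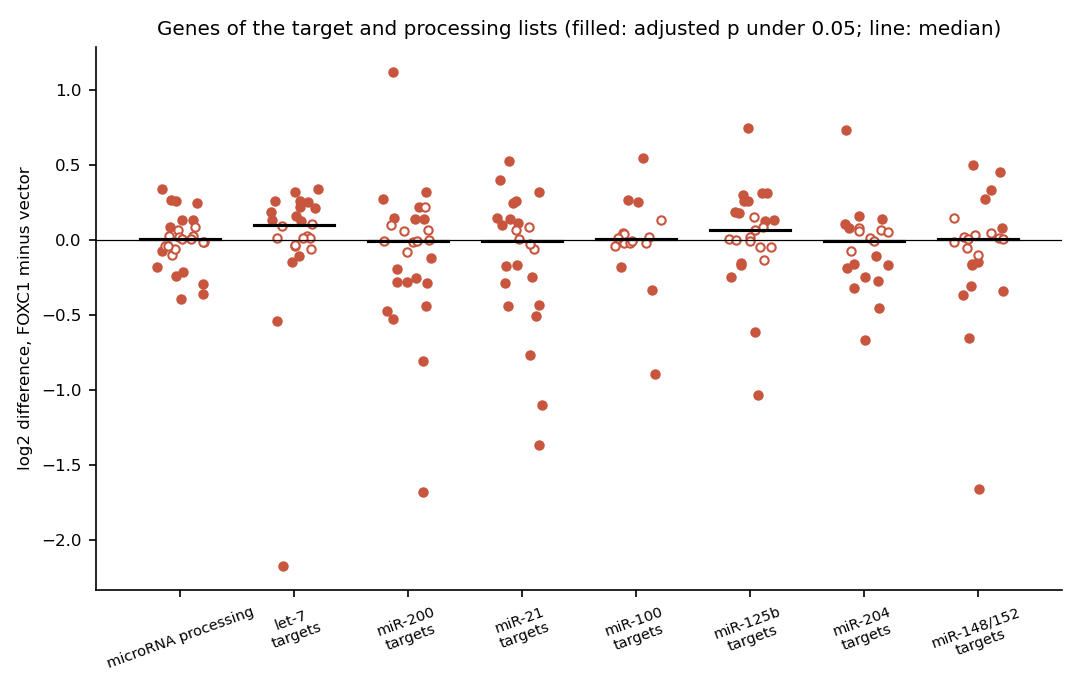
Log2 difference (FOXC1 minus vector) of each measured gene in the list of processing genes and the 7 target lists, with the list median as a line and genes past an adjusted p of 0.05 filled. The medians lie between -0.01 and 0.10, and the genes farthest from 0 are CCND2 (-2.17), VEGFA (-1.68) and ITGB8 (-1.66).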

How the data were processed

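Total RNA of 2 FOXC1 and 2 vector samples of MDA-MB-231 cells was labelled from 100 ng and hybridised to Affymetrix whole-transcript arrays, per the labels. The authors summarised probes to linear intensity per gene, as PLIER signal, in Affymetrix Expression Console, per the submitters' processing notes. The software versions, background step and normalization options were not given in the sources used here. Every deposited column was matched to 1 sample by its label.

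Signals were used as deposited, with 16 added before log2, which shrinks folds of dim probe sets. The 21214 probe sets with a gene symbol (19460 with 1, 1754 with several) entered 1 model in limma 3.58.1 under R 4.3.3 (lmFit, eBayes with a trend, two-sided; 2 residual and 18.1 prior degrees of freedom), with Benjamini-Hochberg adjustment over all of them at 0.05. Means ± SD are of linear signal; folds come from the fit. The fit was tested on simulated data. Genes in lists had 1 probe set, the brightest. The labels call the arrays biological replicates. The p-values and SEs rest only on spread between these arrays, and the spread of each probe set was moderated toward that of others of like signal. Array number limits the precision.

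The 9 genes and the gene lists were chosen with earlier results of these data known. Genes named are the 9 genes, hosts and 2 measured neighbours on each side, up to 4 genes per list that passed with the largest absolute difference, and the 3 probe sets nearest to the most changed member; others are said to be picked afterwards. Sequences are from RefSeq tables on GRCh38.p14. Alternatives were adding 1 or 64, keeping probe sets above percentile 25 or 50 of signal, quantile normalization, array-median centring, eBayes without a trend or robust, the replicate number as a block, each array left out, all rows, and, chosen after seeing the data, centring on the median of named probe sets. Deviations of same-numbered arrays did not go together over probe sets (correlation -0.0148). With 2 arrays a group this cannot show whether same-numbered arrays were prepared as pairs, and the main fit used no pairing.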

Additional observations from a re-analysis of the deposited data

How the results depend on the processing

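The labels number the replicates without saying if same-numbered arrays were prepared together. The replicate number as a block gave 3883 higher and 3428 lower of all probe sets, against 3422 and 3136 without it. KLF9 (adjusted p = 0.0475 in limma) and RPS6KB1 (0.0258) passed in that fit. With 2 arrays a group and no detection calls, dim probe sets such as MIR100 and MIR200A carry the least certain sizes. The median of all probe sets was 0.03 (log2), -0.01 with array-median centring and 0.06 centred on named probe sets, and higher calls were 52.2%, 35.3% and 61% of all calls, and 46.4% without a variance trend. Of 448 counts under alternatives 396 stayed within 1.5 times the main count. The others follow, higher before lower where both moved; their causes were not tested, apart from filters, which leave fewer probe sets in the fit.

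Above the 25th percentile of signal 6 microRNA probe sets passed higher and 3 lower, and 3 of the 9 genes passed higher; above the 50th, where none of the 9 was in the fit, 0 and 0 microRNA probe sets, 2 host genes higher and 6 miR-21 targets lower. Over all rows 5 and 3 microRNA probe sets passed, 3 of the 9 genes higher, 5 targets of the MIR148B family lower and 2 miR-204 targets higher. Quantile normalization gave 8 microRNA probe sets higher and 1 relative lower. Array-median centring gave 2062 of all probe sets higher, 4 processing genes higher, 1 relative lower, and 6 miR-125b, 4 miR-200, 2 miR-204 and 5 miR-21 targets higher. Centring on named probe sets gave 2 host genes higher. Without a variance trend 1703 of all probe sets passed higher and 1964 lower, 3 of the 9 genes higher, 2 hosts and neighbours and 0 host genes higher, 7 and 2 let-7 targets, 3 processing genes higher, 2 and 1 relatives, 5 and 2 miR-125b targets, 4 and 7 miR-200 targets, 1 and 5 miR-204 targets, 4 miR-21 targets higher, 4 targets of the MIR148B family lower and 2 regulators lower.

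With each array left out in turn the counts ran from 6 to 16 microRNA probe sets higher and 3 to 5 lower, 2253 to 3406 of all probe sets higher, 3 to 5 of the 9 genes higher, 0 to 2 relatives lower, 3 to 6 miR-125b targets lower, and 4 to 7 miR-200, 2 to 5 miR-204 and 5 to 9 miR-21 targets higher.

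Of 63 other genes, 886 of 920 values kept direction and side of the threshold; 6 lost and 12 gained a call, and 16 turned sign with 0 of them called. With an array left out C1orf159 ran from -0.00975 to 0.00573, CRTAM from -0.00962 to 0.254, GPR84 from -0.0562 to 0.283, KLF9 from -0.210 to 0.00225, SORL1 from -0.0263 to 0.140, TRPM3 from -0.101 to 0.0548, TUBD1 from -0.149 to 0.0396 and UBASH3B from -0.0107 to 0.0613. Centring on named probe sets turned C1orf159 (0.0214) and TRPM3 (0.000519), array-median centring UBASH3B (-0.0163) and quantile normalization SORL1 (-0.0133).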
